A study of Mus musculus with 18 samples.

Results

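The potassium channel genes examined here were chosen by their symbol, as the rows of the gene count table whose name is Kcn followed by a letter code and a number. This rule took 92 of the 55486 genes in the table, and all 92 are protein coding. It takes pore-forming subunits and auxiliary subunits alike, and left out 7 other symbols that begin with Kcn, such as the noncoding RNA Kcnq1ot1. A gene was counted as detected where its mean raw read count was over 3 in at least 1 of 4 groups, which held for 47 of the 92. Detection and the naming of Kcnq5 used measured values of these libraries, so both are given as descriptions.

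The 18 libraries came from cultured normal mammary fibroblasts (NFs) of FVB/n mice. Cells from female donors of 8 to 16 weeks were sorted as EpCAM-/CD49f-/CD45-/CD31- cells, with 4 to 6 mice pooled per sort, and divided by the surface peptidase CD26, which is encoded by Dpp4. Per the study's methods such cultures were made from mTmG mice or from mice with floxed alleles, Cdh1F/F among them, that carry no WapCre, and which donors gave which library is not stated. CD26- NFs and CD26+ NFs were each kept for 7 days in control conditioned medium (3 libraries each) or in conditioned medium of tumor cells (CM, 6 libraries each). CM came from 6 cell lines of tumors of a mouse model of invasive lobular carcinoma, in which WapCre acts on floxed alleles in mammary epithelium and removes E-cadherin. The lines were 13-MCB-17, 10-SJK-221, 18-MCB-12, 13-MCB-44, 13-MCB-90 and 13-MCB-138, and each gave CM to 1 CD26- culture and 1 CD26+ culture. The study states in general that its experiments were repeated independently. For these libraries the labels and methods do not say whether the 3 control libraries of a cell type were separate cultures or sorts, so p-values measure the spread between these libraries, which may be technical.

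The libraries held 9725723 to 14585349 counted reads. All 8 fibroblast markers examined, among them Col1a1, Pdgfra and Dcn, were over 1 count per 1000000 reads (CPM, scaled by TMM library sizes) in each group. Keratin and other epithelial markers were present too. Their summed level over 10 genes was 4886 to 5467 CPM in CD26- control, 3273 to 5279 CPM in CD26- CM, 762 to 1420 CPM in CD26+ control and 728 to 1763 CPM in CD26+ CM. Dpp4 itself was at 0 to 0.171 CPM in the 6 control libraries and reached 7.80 CPM in CD26+ CM, so in control medium its RNA did not separate the 2 sorted populations. In bulk RNA a smaller share of cells that express a gene and less RNA per cell cannot be told apart.

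Potassium channels let potassium ions leave or enter a cell along their gradient and thereby set the membrane voltage. Voltage-gated channels of the Shaker, Shab, Shaw and Shal types open on depolarization, and KCNQ (Kv7) and ether-a-go-go channels do so more slowly or near rest. Calcium-activated channels link intracellular calcium to voltage, inward rectifiers hold the resting potential, and two-pore-domain (K2P) channels carry the background leak. Modifier subunits form no channel on their own but join Shab subunits, and auxiliary subunits such as Kcnab, Kcne, Kcnip and Kcnmb proteins alter the gating or surface level of pores. Fibroblasts are known to carry inward rectifier, two-pore-domain and calcium-activated channels.

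Of the members called higher with CM in both cell types, Kcnq5 and Kcna3 have promoter entries that lie wholly before the gene as the count table places it. Their 250 bases before the transcription start are printed here 5′ to 3′ so that the stretch next to these responding genes can be seen (RefSeq, GRCm38.p6). Capitals mark GC boxes, the letters GGGCGG on either strand.
Kcnq5, chr1:21961943-21962192, minus strand: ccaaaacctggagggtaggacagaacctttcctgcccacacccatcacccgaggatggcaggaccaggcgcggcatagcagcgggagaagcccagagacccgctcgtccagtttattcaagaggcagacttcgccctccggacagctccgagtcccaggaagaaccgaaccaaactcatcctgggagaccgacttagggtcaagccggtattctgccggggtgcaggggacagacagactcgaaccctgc
Kcna3, chr3:107035912-107036161, plus strand: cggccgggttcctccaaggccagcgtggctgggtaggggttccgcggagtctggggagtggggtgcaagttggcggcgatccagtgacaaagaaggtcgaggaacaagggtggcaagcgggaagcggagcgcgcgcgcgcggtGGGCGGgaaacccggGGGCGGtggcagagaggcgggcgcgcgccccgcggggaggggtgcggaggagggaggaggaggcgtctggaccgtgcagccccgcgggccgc
The Kcna3 stretch holds 2 GC boxes and 74.4% G or C. The Kcnq5 stretch has 60.8% G or C and holds none of the 5 motifs searched on both strands. These were the TATA box TATAAA (in 12.4% of all 32851 promoter stretches of this length), the GC box (32.7%), the cyclic AMP response element TGACGTCA (1.55%), the AP-1 motif TGANTCA (6.75%) and the E-box CACGTG (6.02%). The 2 GC boxes do not overlap each other, and no other of the motifs was found in the Kcna3 stretch. A match is a description of the letters and says nothing of a factor's binding, and no match says only that the letters are not in this window.

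Detection differed little between groups. Of the 92 genes, 36 were detected in CD26- control, 36 in CD26- CM, 38 in CD26+ control and 41 in CD26+ CM, and 29 were detected in all 4 groups. A threshold of 1 count gave 62 genes and one of 10 counts gave 35. The genes nearest the threshold were Kcnmb4 and Kcnh4 with a highest group mean of 2.67 counts and Kcnh5 with 3.0 on the outside, and Kcnj14 with 3.33, Kcnu1 with 3.67 and Kcnj8 with 4.0 on the inside. A further 37 genes had some reads but no group mean over 3, and 8 had no read in any library (among them Kcne1, Kcnj1, Kcnj11, Kcnv1, Kcna10, Kcnk9 and Kcnk18). A count of 0 limits only what these depths could show.

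Classes were set by symbol, not by known gating. Of the class of calcium- or sodium-activated channels 6 of 8 were detected, with Kcnu1 among them near the threshold at 3.67 counts. Among two-pore-domain channels 7 of 14 were detected, among auxiliary subunits 7 of 15, among modifier subunits 5 of 10 and among inward rectifiers 6 of 15. Ether-a-go-go channels had 3 of 8, Shaker channels 4 of 8 and Shal channels 2 of 3. All 3 Kcnab genes, the Shaker beta subunits, were detected, against 1 of 4 Kcne genes and 1 of 4 Kcnmb genes.

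Summed over all 92 genes, the level was 198 ± 8.79 CPM (SD, n = 3) in CD26- control, 220 ± 20.8 (n = 6) in CD26- CM, 213 ± 5.10 (n = 3) in CD26+ control and 246 ± 31.0 (n = 6) in CD26+ CM. The sum therefore differed far less than its parts. Scaled by the annotated exon length, which allows genes to be compared, Kcnk1 was highest in CD26- NFs, at 11.1 CPM per kb in control and 7.76 in CM. Kcnk1 encodes TWIK-1, a two-pore-domain channel. In CD26+ control Kcne4, a subunit that inhibits Kv1 and KCNQ channels, was highest at 15.3 CPM per kb. In CD26+ CM the highest was Kcnk10, which encodes the mechanosensitive leak channel TREK-2, at 7.06 CPM per kb, with Kcne4 next at 5.35.

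**Figure D1:**
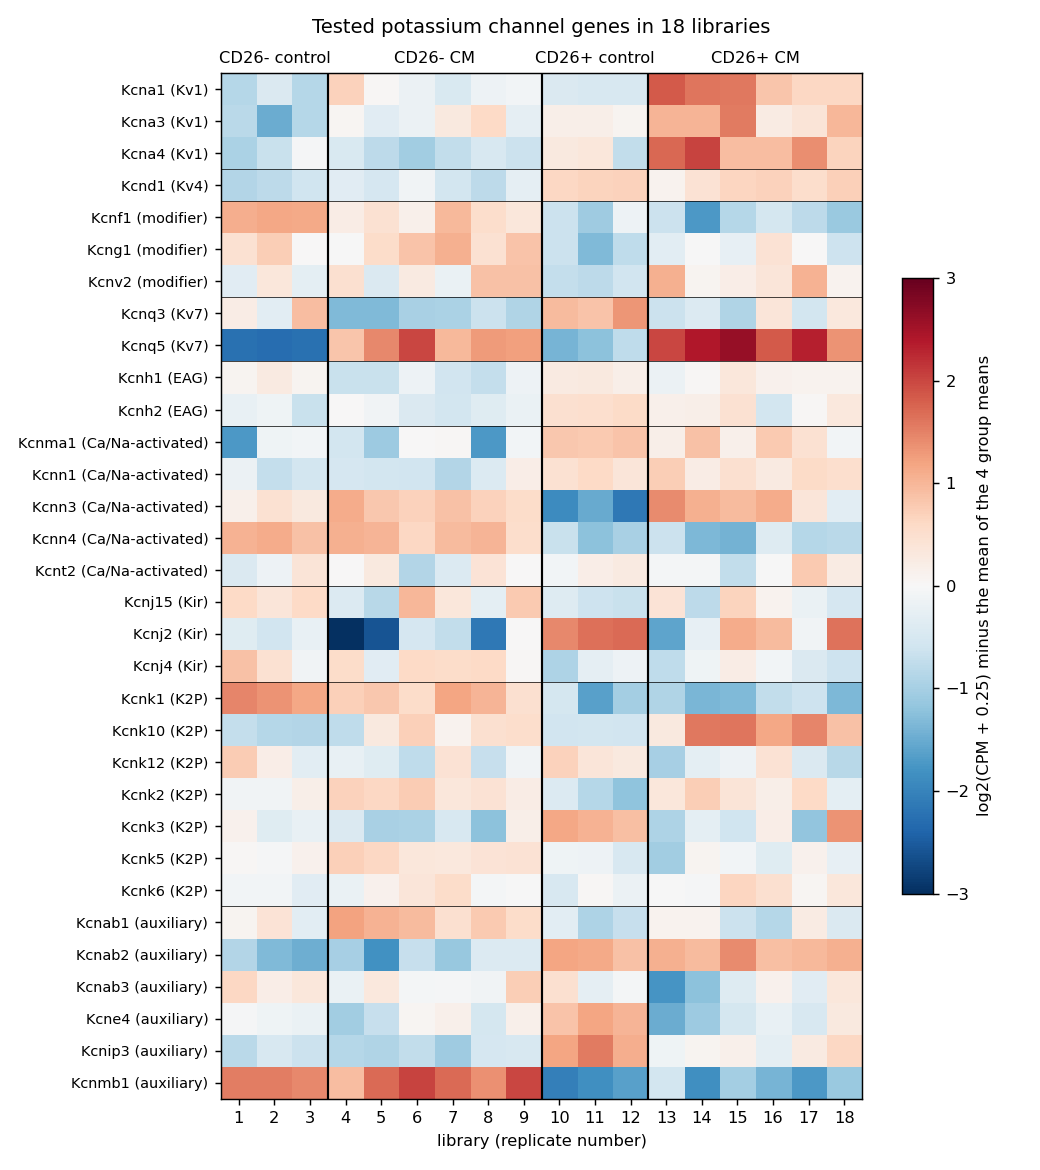
Level of 32 of the 34 tested potassium channel genes (rows, with their class) in the 18 libraries (columns, by replicate number and group), as log2(CPM + 0.25) minus the mean of the 4 group means of each gene; red is higher and blue lower, and colors are capped at 3 units either way. Kcnq5 is low in all 6 control libraries, Kcnk1, Kcnn4 and Kcnmb1 are low in the 9 CD26+ libraries, and Kcnj2 spans a wide range among the CM libraries of both cell types.

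For differential expression the reads of all 14273 genes that passed a low-count filter were fitted together in edgeR, and 34 of the 47 detected genes were among them. A gene was called at a false discovery rate (FDR) under 0.05, adjusted over all 14273 genes. Log2 fold changes are given with their standard error (SE). The filter keeps a gene that is high in only 1 group, so the tested genes are not a fair sample of the 92 and their shares are set beside the share of all tested genes. Through the libraries of 1 group alone 6 of the 34 passed it, among them Kcna1 and Kcna4 through CD26+ CM, Kcnk3 and Kcnq3 through CD26+ control and Kcnj4 through CD26- CM. The other 13 detected genes were too low to test. Among these, Kcnq1, Kcnip4, Kcnu1, Kcnh7, Kcnj14, Kcnj3, Kcnj8, Kcng2, Kcns3, Kcna5, Kcnd3 and Kcnc2 had group means of at most 6.83 counts.

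The first question was how tumor CM changed these genes in each cell type. In CD26- NFs 4 of 34 genes rose (Kcna3, Kcnab1, Kcnk10 and Kcnq5) and 3 fell (Kcnf1, Kcnh1 and Kcnq3), 20.6% in all, beside a background of 7.88% of all tested genes higher and 7.28% lower. In CD26+ NFs 11 rose (among them Kcna1, Kcna3, Kcna4, Kcng1, Kcnk10, Kcnk2, Kcnn3, Kcnq5 and Kcnv2) and 3 fell (Kcne4, Kcnip3 and Kcnq3), 41.2% in all, beside 15.2% and 13.4%. Kcnq5 was named with its values in these groups known, so its place in both counts is no independent evidence. With the added limit of a log2 fold change over 2 in either direction, 2 genes were called in CD26- NFs (Kcnq3 and Kcnq5, background 0.904%) and 4 in CD26+ NFs (among them Kcna1, Kcnn3 and Kcnq5, background 2.01%). Kcna3, Kcnk10 and Kcnq5 rose and Kcnq3 fell in both cell types, and no gene was called in opposite directions. The median size of the log2 fold change was 0.48 for the 34 genes and 0.15 for all tested genes in CD26- NFs, and 0.89 and 0.19 in CD26+ NFs. Of the 34 genes only 12 had a mean of 5 CPM or more.

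Kcnq5 encodes a KCNQ subunit that carries a slow, low-threshold current known from neurons and smooth muscle. The gene (ENSMUSG00000028033) lies on the minus strand of GRCm38 chromosome 1 from 21398403 to 21961942, directly downstream of the first sequence printed above. Its level was 1.16, 1.11 and 1.15 CPM in the CD26- control libraries, and 11.5, 17.7, 26.3, 12.7, 15.8 and 15.3 CPM in CD26- CM, in the order of lines given above. Each CM library was thus far above each control library, with no overlap. The fitted log2 difference was 3.85 (SE 0.39), given as a description, since the gene was singled out for this contrast. In raw reads the CD26- controls had 12 to 17 and CD26- CM 144 to 360.

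In CD26+ NFs Kcnq5 was at 2.27, 2.59 and 3.64 CPM in control and at 26.5, 34.6, 40.5, 23.4, 32.9 and 16.5 CPM in CM, again without overlap. The fitted log2 difference was 3.35 (SE 0.32), also given as a description, since the gene was named with the values of all 4 groups known. The CM effect of CD26+ minus that of CD26- NFs was -0.50 (SE 0.54). An antisense noncoding gene shares 237 of the 7689 annotated exon bases of Kcnq5. The libraries were strand-specific, but the strand setting of the read counting is not given in the sources used here.

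Kcnq3 moved the other way at very low counts. Kcnq3 encodes a subunit of the neuronal M-current channel. The CD26- control libraries had 5, 3 and 14 reads, and the CD26- CM libraries 0, 0, 1, 1, 2 and 1. In CD26+ NFs there were 12, 12 and 18 reads in control and 2, 3, 1, 7, 2 and 6 in CM. The groups did not overlap in either cell type. The log2 fold change was -3.01 (SE 0.65, edgeR FDR 0.00571) in CD26- NFs and -1.86 (SE 0.45, FDR 0.00501) in CD26+ NFs, and its size at such counts depends on how the fit treats libraries without reads. The gene was tested because it is high in CD26+ control, so its fall there is no independent evidence. Without CD26- control replicate 3 the FDR in CD26- NFs was 0.0907.

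Among the two-pore-domain channels Kcnk10 rose most. It lies on chromosome 12 from 98429437 to 98578310. In CD26- NFs it was at 15.8, 14.3 and 14.2 CPM in control and at 15.2, 32.1, 43.2, 28.1, 36.4 and 37.9 CPM in CM. Only the CM library of line 13-MCB-17 fell within the control range. The log2 fold change was 1.13 (SE 0.29, edgeR FDR 0.0162), and with any 1 of the 3 control libraries left out the FDR was 0.0512 to 0.079. In CD26+ NFs it was at 17.5, 17.7 and 17.4 CPM in control and at 32.4, 79.2, 80.2, 58.7, 72.9 and 48.1 CPM in CM, so all CM libraries were above control (log2 fold change 1.82, SE 0.29, FDR 0.000200). Kcnk2, which encodes the related channel TREK-1, rose in CD26+ NFs from 3.36 ± 1.01 to 7.75 ± 1.86 CPM (log2 fold change 1.21, SE 0.22, FDR 0.000576). In CD26- NFs its means were 5.95 and 8.73 CPM (FDR 0.0744). Of the other 5 tested K2P genes (Kcnk1, Kcnk12, Kcnk3, Kcnk5 and Kcnk6), none passed in either cell type, with the least FDR at 0.066 for Kcnk3 in CD26+ NFs.

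The Shaker pore subunits were low throughout. In CD26+ NFs Kcna1 went from 0.0764 ± 0.00393 to 0.839 ± 0.404 CPM, Kcna4 from 0.436 ± 0.249 to 1.47 ± 0.649 CPM, and Kcna3, the Shaker channel best known from T cells, from 0.789 ± 0.0406 to 1.55 ± 0.597 CPM. In each of these 3 genes the CD26+ CM and control libraries did not overlap, and Kcna3 rose by 0.97 on the log2 scale (SE 0.33, edgeR FDR 0.0371, and 0.0740 without the low-count filter). Kcna1 and Kcna4 were tested because they are high in CD26+ CM, so their fitted differences of 3.32 (SE 0.63) and 1.75 (SE 0.43) are given as descriptions. Kcna1 had 1 read in each CD26+ control library and 5 to 18 in CD26+ CM, and without CD26+ CM replicate 13, 14 or 15 it was no longer tested. In CD26- NFs only Kcna3 of these passed, from 0.216 ± 0.113 to 0.732 ± 0.259 CPM (1.71, SE 0.49, FDR 0.0257). The Kcna3 calls rest on 1 to 30 reads a library. Leaving out any 1 control library of the same cell type lost them, as did leaving out CD26- CM replicate 8 or CD26+ CM replicate 13, 14 or 15, with FDR values of 0.0502 to 0.116.

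Of the modifier subunits, Kcng1 rose in CD26+ NFs from 1.61 ± 0.441 to 2.97 ± 0.821 CPM and Kcnv2 from 0.254 ± 0.0385 to 0.926 ± 0.396 CPM (edgeR FDR 0.0341 and 0.0108). Kcnf1 fell in CD26- NFs from 8.05 ± 0.188 to 5.02 ± 1.17 CPM (FDR 0.0377). All 3 calls depended on single libraries. In fits that each left out 1 of the 18 libraries, the Kcng1 call was lost without any CD26+ control or CD26+ CM replicate 14, 16 or 17, with an FDR up to 0.182. The Kcnf1 call was lost without any CD26- library but CM replicate 7, with an FDR up to 0.131. Kcnv2 was at 0.0528 without CD26+ control replicate 11. Kcnh1, an ether-a-go-go channel that is also known from proliferating cells, was at 12.7, 14.4 and 12.7 CPM in CD26- control and at 7.45, 7.44, 10.7, 7.96, 7.14 and 10.8 CPM in CD26- CM, with no overlap. It fell by 0.63 on the log2 scale (SE 0.13, FDR 0.00494) and did so in all 18 such fits. With the skeletal muscle marker level as covariate, a fit in which edgeR called none of all tested genes, it was -0.37 (SE 0.30, FDR 0.894). In CD26+ NFs it was at 14.3, 14.7 and 13.6 CPM in control and at 10.5, 12.2, 15.2, 13.2, 12.9 and 12.8 CPM in CM (FDR 0.42). Kcnab1, a Shaker beta subunit, rose in CD26- NFs from 4.47 ± 1.16 to 7.81 ± 1.59 CPM (FDR 0.0339), a call lost without CD26- control replicate 1 or 3 or CM replicate 4, 5 or 6, with an FDR up to 0.197.

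**Figure D2:**
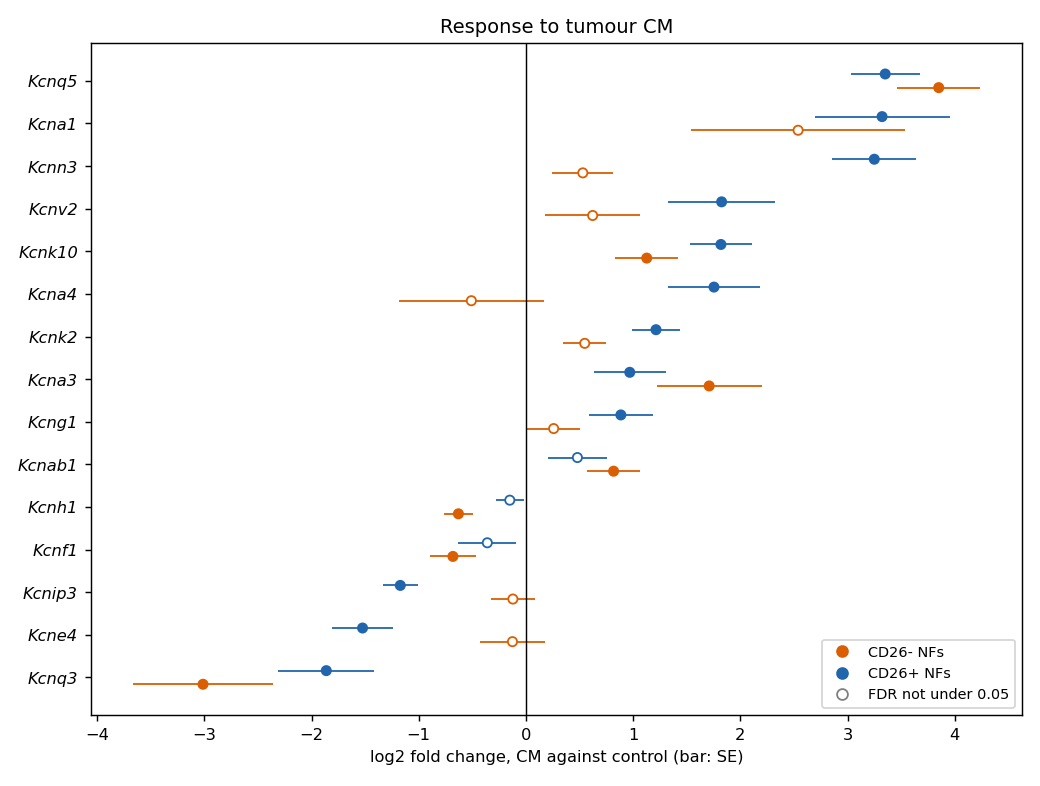
Log2 fold change of CM against control medium (points, with SE as bars) for 15 of the 17 potassium channel genes called in at least 1 cell type; orange is CD26- NFs, blue CD26+ NFs, and open points have an FDR of 0.05 or more. Kcnq5 lies at 3.85 and 3.35, while Kcnn3, Kcne4 and Kcnip3 were called in CD26+ NFs and not in CD26- NFs, a difference that itself passed the test for Kcnn3 and Kcnip3.

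Markers of other cells also moved with CM. In CD26- NFs 5 of 6 tested skeletal muscle genes rose, among them the embryonic myosin Myh3 from 0.59 to 14.1 CPM and the muscle regulator Myog from 0.18 to 5.36 CPM, with the summed level of the 8 listed genes at 49.4 to 76.6 CPM in control and 49.6 to 122 CPM in CM. In CD26+ NFs none of the 6 was called by edgeR, nor had an unadjusted p under 0.05. None of the 10 epithelial genes was called by edgeR with CM in either cell type, with 1 and 0 at an unadjusted p under 0.05. Of 7 pericyte and smooth muscle genes CM raised 1 and lowered 2 in CD26- cells and raised 1 in CD26+ cells, and their summed level went from 351 to 385 CPM in control to 146 to 374 CPM in CD26- CM, and from 193 to 214 to 91.9 to 195 CPM in CD26+ NFs. The summed fibroblast markers overlapped between media in CD26- NFs, at 14899 to 16642 and 8056 to 19798 CPM, but not in CD26+ NFs, at 60193 to 77001 CPM in control and 27313 to 50319 CPM in CM. Of these 8 genes CM raised 4 and lowered 1 in CD26- cells, and raised 3 and lowered 3 in CD26+ cells. The summed Schwann and neural markers were lower in CM in both cell types, at 13.4 to 17.0 against 8.63 to 11.5 CPM and at 40.7 to 44.9 against 12.8 to 20.5 CPM. Most of the sum in CD26+ control came from 1 gene, Tubb3. Of 4 tested genes of this list CM raised 1 and lowered 1 in CD26- cells, and raised none and lowered 1 in CD26+ cells. Of 3 tested adipocyte genes CM raised none in CD26- cells by edgeR (1 at an unadjusted p under 0.05) and 1 in CD26+ cells, with summed levels of 14.3 to 16.0 CPM in control and 16.9 to 27.9 CPM in CM, and of 22.3 to 37.8 and 32.7 to 89.1 CPM. Of 4 tested endothelial genes 1 was called higher with CM in each cell type, with the summed level at most 9.16 CPM in any library. None of 3 tested immune genes was called by edgeR in either cell type, nor had an unadjusted p under 0.05. With the muscle level as covariate edgeR called none of the 34 genes for CM in CD26- NFs. That fit called none of all tested genes, and 2 of the 34 had an unadjusted p under 0.05. With the epithelial level edgeR called 3, beside 8.83% of all tested genes. In CD26+ NFs 14 and 15 were called with these covariates, beside 26.6% and 29.9%. The part of the cells of the other lists in the changes of potassium channel genes was not tested.

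The second question was whether the response to CM depended on the cell type. The difference of the CM effects, CD26+ minus CD26-, passed for 2 of 34 genes, Kcnn3 in the higher direction and Kcnip3 in the lower, where 4.53% and 3.01% of all tested genes were called. Kcnn3 encodes SK3, a small-conductance calcium-activated channel. It was at 2.42, 3.07 and 2.71 CPM in CD26- control and at 4.96, 4.00, 3.66, 4.20, 3.65 and 3.27 CPM in CD26- CM. In CD26+ NFs it was at 0.405, 0.593 and 0.297 CPM in control, with 4 to 8 reads a library, and at 6.22, 4.80, 4.39, 4.99, 2.84 and 1.70 CPM in CM. Control CD26+ NFs thus stood below the other 3 groups without overlap, and the CD26+ CM libraries lay on both sides of the CD26- range, with line 13-MCB-17 highest and 13-MCB-138 lowest. The log2 fold change was 3.25 (SE 0.39, edgeR FDR 1.33e-05) in CD26+ and 0.53 (SE 0.28, FDR 0.216) in CD26- NFs, and the difference was 2.72 (SE 0.50, FDR 0.00542). Its FDR was at most 0.0246 whichever library was left out, but 0.623 with the skeletal muscle marker level as covariate (2.59, SE 0.79), a fit in which none of all tested genes was called by edgeR.

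Kcnip3 encodes the calcium sensor KChIP3, which binds Shal channels and is also known as the transcriptional repressor DREAM. It was at 3.68, 4.70 and 4.13 CPM in CD26- control and at 3.52, 3.44, 3.88, 3.00, 4.58 and 4.69 CPM in CD26- CM, which overlap. In CD26+ NFs it was at 15.3, 20.1 and 14.2 CPM in control and at 6.06, 7.05, 7.43, 5.39, 7.98 and 10.3 CPM in CM, all below control. The log2 fold changes were -0.12 (SE 0.20, edgeR FDR 0.733) and -1.17 (SE 0.16, FDR 5.79e-05), and the difference was -1.05 (SE 0.26, FDR 0.0230). The FDR of the difference was 0.0557 with replicate 1 of CD26- control left out, 0.0601 with replicate 3, and 0.073 with replicate 11 of CD26+ control. With the skeletal muscle level as covariate the difference was -0.83 (SE 0.50, FDR 0.777).

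Kcne4 came next. It was at 19.2, 18.0 and 17.3 CPM in CD26- control and at 9.45, 12.1, 20.6, 21.9, 13.7 and 22.2 CPM in CD26- CM, on both sides of the controls. In CD26+ NFs it was at 36.2, 45.5 and 40.2 CPM in control and at 6.90, 9.23, 13.6, 17.0, 14.0 and 24.5 CPM in CM, all below control (log2 fold change -1.52, SE 0.28, edgeR FDR 0.000760). The difference of the CM effects was -1.40 (SE 0.42) and missed the threshold (FDR 0.0522). Because the same 6 lines treated both cell types, and libraries of 1 line deviated together, the fit was repeated with the line as a block. It then called 17.6% of all tested genes, and 5 of the 34 (14.7%) in place of 2, so the members' share was near that of all genes. These were Kcnn3, Kcnip3, Kcne4 (-1.42, SE 0.16, FDR 0.000193), Kcnh1 (0.49, SE 0.13, FDR 0.0229) and Kcnk10 (0.70, SE 0.17, FDR 0.0135).

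**Figure D3:**
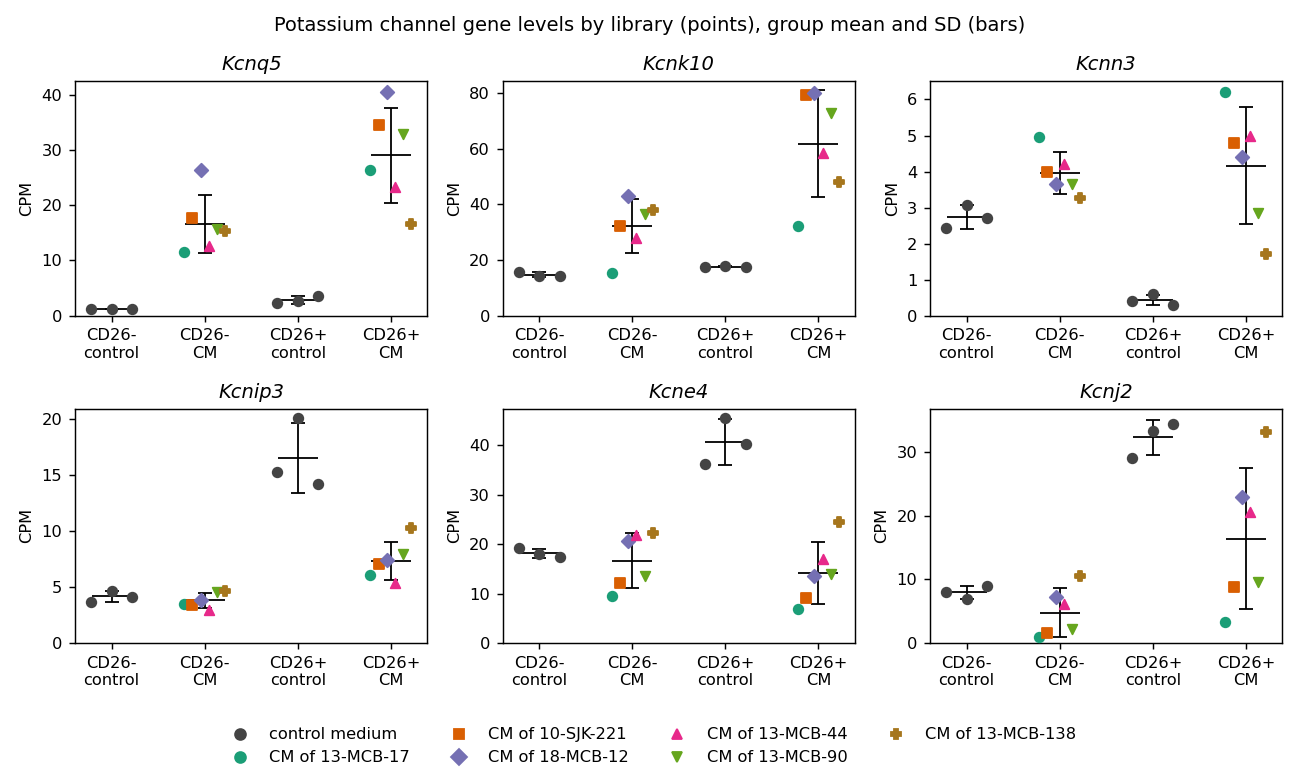
Level in CPM of Kcnq5, Kcnk10, Kcnn3, Kcnip3, Kcne4 and Kcnj2 in every library (points; color and shape give the tumor line of the CM, grey is control medium), with the mean and SD of each group as bars (n = 3 control, n = 6 CM). Control CD26+ NFs are lowest for Kcnn3 and highest for Kcnip3 and Kcne4, and lines 13-MCB-17 and 13-MCB-138 give the lowest and highest Kcnj2 and Kcne4 in both cell types.

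The third question was how the 2 fibroblast populations differed. In control medium 10 of 34 genes were higher in CD26+ than CD26- NFs and 9 were lower, 55.9% in all, close to the background of 25.0% higher and 25.4% lower among all tested genes. In CM 15 were higher and 8 lower, 67.6% in all, beside 29.3% and 29.3%. With the log2 limit of 2, 5 genes were called in control medium (background 5.97%) and 4 in CM (4.16%). In both media 9 genes were higher in CD26+ NFs (Kcna3, Kcnab2, Kcnd1, Kcnh2, Kcnip3, Kcnj2, Kcnma1, Kcnn1 and Kcnq5) and 6 were lower (Kcnf1, Kcng1, Kcnj4, Kcnk1, Kcnmb1 and Kcnn4), and none reversed. Kcnq5 was named with these values known, and Kcnj4 was tested because it is high in CD26- CM, so neither is independent evidence. Some of these calls were lost when 1 library was left out. In control medium this held for Kcnma1 (edgeR FDR up to 0.0956), Kcnj2 (0.0544), Kcnq5 and Kcnj4, and in CM for Kcnh2 (0.11), Kcnma1 (0.0593) and Kcnj4. The median size of the log2 fold change was 1.13 for the 34 genes and 0.33 for all tested genes in control medium, and 0.94 and 0.28 in CM. Of the 10 epithelial genes 9 were lower in CD26+ NFs, and in CM all 6 tested muscle genes were. Of 8 fibroblast genes 7 were higher in CD26+ NFs in both media, as were all 3 tested adipocyte genes, with a median log2 fold change of 1.77 and 1.28 for fibroblast genes and of 3.89 and 4.32 for adipocyte genes in control medium and CM. The sort and these markers move together, so the part of such cells cannot be told apart from that of the CD26 gate.

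Of the genes lower in CD26+ NFs, Kcnmb1, Kcnk1 and Kcnn4 had the smallest p in both media. Kcnmb1 encodes the smooth muscle beta subunit of the large-conductance calcium-activated (BK) channel. It was at 4.65, 4.70 and 4.33 CPM in CD26- control and at 2.96, 5.26, 6.66, 5.25, 4.11 and 6.54 CPM in CD26- CM. All 9 CD26+ libraries were below 1 CPM, at 0.162, 0.222 and 0.297 CPM in control, with 2 to 4 reads each, and at 0.910, 0.225, 0.591, 0.396, 0.266 and 0.536 CPM in CM. The log2 fold change was -4.26 (SE 0.42, edgeR FDR 3.85e-07) in control medium and -3.36 (SE 0.26, FDR 1.22e-08) in CM. The BK pore gene Kcnma1 was itself low and went the other way, from 0.351 ± 0.305 to 1.22 ± 0.0385 CPM in control medium (FDR 0.0297, up to 0.0956 with 1 library left out). Among 7 pericyte and smooth muscle markers the summed level was 351 to 385 CPM in CD26- control and 193 to 214 CPM in CD26+ control, and its part in the Kcnmb1 difference was not tested.

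Kcnk1 was at 27.3, 25.2 and 22.2 CPM in CD26- control and at 16.1, 17.3, 14.4, 22.5, 19.9 and 13.8 CPM in CD26- CM. In CD26+ NFs it was at 6.64, 2.96 and 4.67 CPM in control and at 5.08, 3.60, 3.72, 5.79, 6.21 and 3.66 CPM in CM. No CD26+ library reached any CD26- library, with log2 fold changes of -2.39 (SE 0.25, edgeR FDR 6.18e-07) and -1.89 (SE 0.18, FDR 1.03e-07). With the epithelial marker level as covariate, in fits that called 4.99% and 7.36% of all tested genes, they were -0.78 (SE 0.31, FDR 0.168) and -0.51 (SE 0.26, FDR 0.240). Kcnn4 encodes KCa3.1, the intermediate-conductance calcium-activated channel known from fibroblasts and lymphocytes. It was at 42.8, 44.8 and 38.1 CPM in CD26- control, at 43.4, 42.0, 31.8, 39.9, 42.1 and 30.2 CPM in CD26- CM, at 12.9, 8.67 and 10.4 CPM in CD26+ control and at 13.0, 7.95, 7.60, 15.8, 11.4 and 11.8 CPM in CD26+ CM. The cell types did not overlap in either medium, with log2 fold changes of -1.98 (SE 0.22, FDR 1.11e-06) and -1.76 (SE 0.15, FDR 4.26e-08), while its CM effects were -0.13 (SE 0.17, FDR 0.658) in CD26- and 0.08 (SE 0.20, FDR 0.797) in CD26+ NFs. With the epithelial covariate the cell type differences of Kcnn4 were -0.74 (SE 0.32, FDR 0.194) and -0.73 (SE 0.26, FDR 0.0921), while Kcnmb1 still passed in both media (FDR 0.0102 and 0.00579). Kcnn1, the third detected gene of that family, was higher in CD26+ NFs, at 4.98 ± 0.405 against 2.48 ± 0.547 CPM in control medium (FDR 0.00133).

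Genes higher in CD26+ NFs included Kcnab2, Kcnd1 and Kcnj2. Kcnab2, a Shaker beta subunit, was at 1.84, 1.28 and 1.15 CPM in CD26- control and at 1.68, 0.842, 2.12, 1.50, 2.64 and 2.65 CPM in CD26- CM. It was at 8.42, 8.15 and 6.83 CPM in CD26+ control and at 7.81, 7.13, 9.96, 6.90, 7.27 and 7.77 CPM in CD26+ CM, well clear of CD26- NFs. The log2 fold change was 2.47 (SE 0.29, edgeR FDR 1.78e-06) in control medium and 2.04 (SE 0.19, FDR 9.10e-08) in CM. The pore subunits that Kcnab2 is known to join were at most 1.55 CPM on average among the 3 tested Shaker genes. Kcnd1, a Shal pore subunit, was at 8.50 ± 0.885 CPM in CD26- control and 23.2 ± 0.620 in CD26+ control (1.44, SE 0.16, FDR 1.38e-06). Kcnip3, which binds Shal subunits, was higher there as well (1.98, SE 0.21, FDR 7.24e-07).

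Kcnj2 encodes Kir2.1, the inward rectifier that holds the resting potential in many cells. It lies on chromosome 11 from 111066164 to 111076821. It was at 8.04, 6.92 and 9.00 CPM in CD26- control and at 29.1, 33.3 and 34.4 CPM in CD26+ control, 2.01 apart on the log2 scale (SE 0.65, edgeR FDR 0.0163, and 0.0544 without CD26- control replicate 2). In CM the cell types overlapped, but CD26+ NFs were higher at each line (1.78, SE 0.50, FDR 0.00539). The other tested inward rectifiers, Kcnj15 and Kcnj4, were lower in CD26+ control (FDR 0.0376 for Kcnj15, and each call was lost in 6 of the 18 fits that left out 1 library). Kcnab3, Kcnk12, Kcnk3, Kcnk6 and Kcnt2 passed in none of the 4 group comparisons over all libraries, and of these Kcnab3, Kcnk12 and Kcnk3 passed in one or more fits that left out 1 library. With line as a block, which called 63.0% of all tested genes for CD26+ against CD26- NFs in CM, the test also passed for Kcnk3 (0.92, SE 0.32, edgeR FDR 0.0229, against 0.162 without the block) and for Kcne4 (-0.26, SE 0.10, FDR 0.0309, against 0.442).

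**Figure D4:**
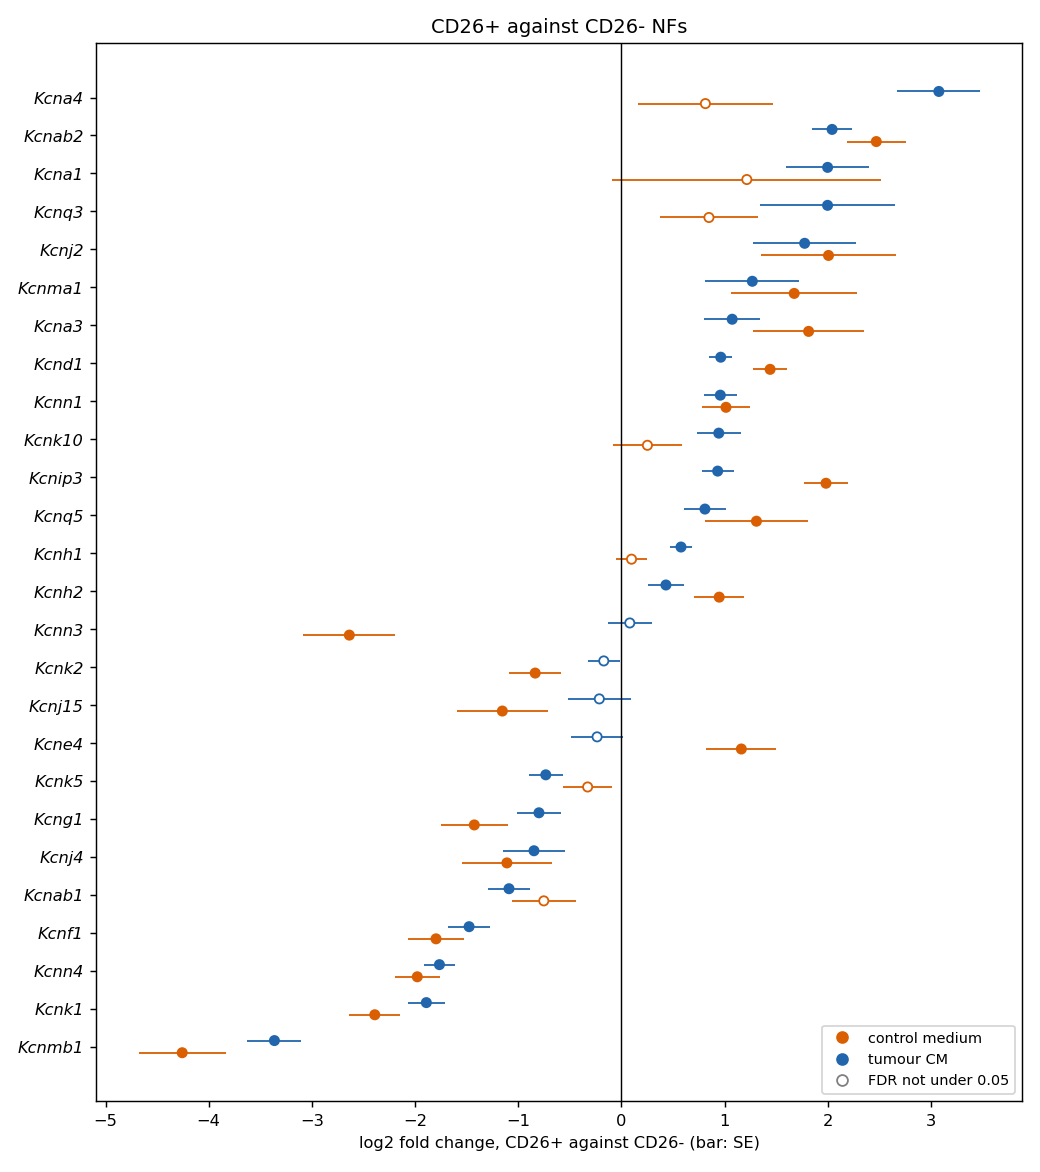
Log2 fold change of CD26+ against CD26- NFs (points, with SE as bars) for 26 of the 27 potassium channel genes called in at least 1 medium; orange is control medium, blue tumor CM, and open points have an FDR of 0.05 or more. Kcnmb1 lies lowest at -4.26 and -3.36, and no gene is called in opposite directions in the 2 media.

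The last question was whether the 6 tumor lines differed. Each line has 1 library per cell type, so the test takes a line's effect as alike in both. It passed for 3 of 34 genes, Kcnj2, Kcne4 and Kcnk10, 8.82% beside a background of 6.28%, so a share close to that of all tested genes. Kcnj2 was at 1.04, 1.54, 7.32, 6.15, 2.17 and 10.6 CPM in CD26- NFs and at 3.34, 8.78, 22.9, 20.5, 9.67 and 33.1 CPM in CD26+ NFs, in the order of lines given above. The highest line was 10.2-fold above the lowest in CD26- and 9.91-fold in CD26+ NFs (edgeR FDR 0.000703). Lines 13-MCB-17, 10-SJK-221 and 13-MCB-90 gave low levels in both cell types, and 13-MCB-138 gave levels near those of control medium, at 1.33 times the control mean in CD26- and 1.03 times in CD26+ NFs. For 13-MCB-17 the same ratios were 0.13 and 0.10. Over all 6 lines the CM effect on Kcnj2 did not pass (FDR 0.45 and 0.163). Line 13-MCB-138 has the highest Kcnj2, so leaving it out moves the CM mean down by construction, and such fits are given as descriptions. In CD26+ NFs the effect was -1.32 (SE 0.49, edgeR FDR 0.0447) without CD26+ CM replicate 18, against -0.99 (SE 0.51) with it. Without both libraries of that line, a fit chosen after seeing the data, it was -1.31 (SE 0.45, FDR 0.0316). These fits called 34.9% and 35.2% of all tested genes, against 28.6% with all libraries.

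Kcne4 had its lowest level with 13-MCB-17 and its highest with 13-MCB-138 as well, 2.35-fold apart in CD26- and 3.55-fold in CD26+ NFs (edgeR FDR 0.00934). Kcnk10 was lowest with 13-MCB-17 and highest with 18-MCB-12 in both cell types, 2.84-fold and 2.48-fold apart (FDR 0.0203). Its call was lost without CD26- CM replicate 4, 6 or 8 or CD26+ CM replicate 13, 15, 16 or 17, with FDR values up to 0.0947. Kcnq5 was highest with 18-MCB-12 in both cell types, at 23.1 and 14.3 times the control mean, and its lines spanned 2.28-fold and 2.45-fold. These values are given as a description, since the gene was named with them known, and the line test over all CM libraries did not call it. Without CD26- CM replicate 9, which received CM of 13-MCB-138, 8 genes were called (23.5%, beside 14.6% of all tested genes in that fit), and 6 without its CD26+ counterpart, replicate 18 (17.6%, beside 10.2%). Those 6 included Kcnj15, Kcnq5 and the 3 named first, and the place of Kcnq5 in such a count is no independent evidence.

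Other genes of ion transport were listed for comparison, by counts from the same fit. Of all tested genes CM raised 7.88% and lowered 7.28% in CD26- cells, and raised 15.2% and lowered 13.4% in CD26+ cells, and the shares of each list are to be read beside these. Of 13 tested potassium pumps and cotransporters, CM raised 1 and lowered 2 in CD26- cells (23.1% in all), and raised 3 and lowered 2 in CD26+ cells (38.5%). Atp1b1, a subunit of the sodium-potassium pump, fell in both, from 5.98 to 3.25 CPM (edgeR FDR 0.00333) and from 2.84 to 1.64 CPM (FDR 0.00764). Of 5 tested partner subunits of potassium channels, CM raised 1 and lowered 2 in CD26- cells, and raised 2 and lowered 1 in CD26+ cells (60.0% in each). Abcc9, the sulfonylurea receptor that pairs with inward rectifiers, fell in CD26+ NFs from 3.87 to 1.23 CPM (FDR 0.000366), and Dpp6, a partner of Shal channels, fell in CD26- NFs from 2.47 to 1.07 CPM (FDR 0.0201).

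Of 24 tested calcium entry channels, CM raised 2 and lowered 4 in CD26- cells (25.0%), and raised 7 and lowered 3 in CD26+ cells (41.7%). The store-operated channel gene Orai2 rose in CD26+ NFs from 17.3 to 28.2 CPM (edgeR FDR 6.92e-05), and the calcium channel subunit Cacnb2 fell from 3.62 to 1.49 CPM (FDR 0.000251). Of 18 tested chloride and volume-regulated channels, CM lowered 4 and raised none in CD26- cells, and raised 4 and lowered none in CD26+ cells, 22.2% in each, which in CD26+ cells is below the share of all tested genes. Lrrc8d, a subunit of the volume-regulated anion channel, rose in CD26+ NFs from 14.0 to 30.0 CPM (FDR 0.000179). Clic4 fell in CD26- NFs from 576 to 451 CPM (FDR 0.00601) and rose in CD26+ NFs from 329 to 398 CPM (FDR 0.0145). The median size of the log2 fold change was 0.19, 1.02, 0.23 and 0.19 in CD26- NFs for pumps, partners, calcium and chloride genes, and 0.38, 0.89, 0.31 and 0.15 in CD26+ NFs, beside 0.15 and 0.19 for all tested genes.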

How the data were processed

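PolyA RNA libraries (TruSeq stranded, single-end, Illumina) were aligned with HISAT2 2.1.0 to GRCm38 and counted with HTSeq, per the labels and the submitters' processing notes. The HTSeq version, strand setting and annotation release are not given in the sources used here. The authors deposited raw read counts per gene, 1 column per library, with 0 reads in the 1 row that names no gene. Members and gene lists were chosen with earlier results of these data known.

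Groups were taken from the labels. Counts were scaled by TMM and fitted over 18 libraries and 4 groups in edgeR 4.0.16 (R 4.3.3, quasi-likelihood F-test) after filterByExpr, with Benjamini-Hochberg adjustment over 14273 genes and calls at an FDR under 0.05. SE is the log2 fold change divided by the root of F. Lines were tested over the 12 CM libraries with cell type as covariate. CPM uses the TMM library sizes. The script was tested on simulated data. Replicates of a group differed beyond sampling noise (lowest chi-square per degree of freedom 3.10). Libraries treated with the same line deviated together (r of 0.247 to 0.406 in 6 pairs, after cell type means were removed), so the line, which the labels give, was taken to pair them.

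Values in every library are given for Kcnq5, for the 3 genes with the smallest p in each group comparison, and for genes called for the difference in CM effect or among lines. From the other ion transport lists up to 2 genes with the smallest p with CM are named. Alternatives were RLE and upper-quartile scaling, other filters, DESeq2 1.42.0, the study's added limit (log2 fold change over 2 in either direction), only the 2 groups compared, line as block, epithelial or skeletal muscle marker level as covariate, and each library left out. Leaving out both libraries of line 13-MCB-138 was chosen after seeing the data. Promoter stretches were matched by symbol for 67 of 92 genes (24 of 34 tested). Coordinates of 90 genes were the same in GENCODE M21. A few genes, and 1 allele of the tumor model, are not reported here or drawn.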

Additional observations from a re-analysis of the deposited data

Results flagged for a closer look

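Of 24 groups of 6 libraries tested for a single far value among the 12 genes given in every library, 1 was flagged, and chance flags about 1 in 20 groups. Kcnab2 was at 9.96 CPM in CD26+ CM replicate 15, which received CM of line 18-MCB-12, against at most 7.81 CPM in the other 5 CD26+ CM libraries. The CD26+ against CD26- difference of Kcnab2 was called whichever library was left out.

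The effect of CM differed between the cell types for Kcnn3, by 2.72 on the log2 scale, and for Kcnip3, by -1.05, each by the interaction term of the edgeR fit. In control CD26+ NFs Kcnn3 was lowest and Kcnip3 highest of the 4 groups. The summed Schwann and neural markers were also highest there, at 40.7 to 44.9 CPM against 8.63 to 20.5 CPM in the other groups, most of it from Tubb3 at 40.1 CPM, and their part in either difference was not tested.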

How the results depend on the processing

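Across 65 calls of a single gene in a comparison, 62 kept direction and threshold with DESeq2, 65 with RLE scaling, 64 with upper-quartile scaling and 61 without a filter. The number of detected genes stayed within 1.5 times under each threshold tried.

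Requiring a mean of 5 CPM left 12 genes to test and called 4 for CM in CD26- NFs (of 7), 5 in CD26+ NFs (of 14), and 9 (of 19) and 9 (of 23) between cell types in control medium and CM. The log2 limit of 2 left 2, 4, 5 and 4, and 1 for the difference in CM effect. With the epithelial level as a covariate 3 were called for CM in CD26- NFs, and 3 and 2 between cell types in control medium and CM. With the muscle level these were 0, 12 and 1, and 0 for the difference in CM effect. Of all tested genes the epithelial covariate left 8.83%, 4.99% and 7.36% called in these comparisons and the muscle covariate none, 38.2% and 0.119%, and none for the difference. The edgeR counts of 0 had 2 and 3 members at an unadjusted p under 0.05. Under these covariates the difference in CM reversed for Kcng1 (0.037), Kcnh2 (-0.33) and Kcnq5 (-0.012) with epithelial level, and for Kcnh2 (-0.15), Kcnj4 (0.86) and Kcnma1 (-0.13) with muscle level. Both levels follow the cell type, so covariate and group cannot be told apart in the comparisons of cell types. In CD26- NFs the muscle genes also follow CM, with 5 of 6 tested called higher (median log2 fold change 3.63). There the muscle level and CM cannot be told apart either.

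With line as block 5 genes were called for the difference in CM effect in place of 2, and 25 in place of 23 between cell types in CM, with Kcne4 and Kcnk3 added, beside 17.6% and 63.0% of all tested genes. The block was fitted for these 2 comparisons only. Without line 13-MCB-138 (chosen after seeing the data) 4 were called for that difference (beside 16.9% of all tested genes) and 6 in place of 3 among lines (beside 10.2%).

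With 1 library left out, counts ran from 3 to 8 for CM in CD26- NFs (4 without control replicate 1, 3 without control replicate 3), 10 to 16 in CD26+ NFs, 15 to 20 and 20 to 24 between cell types in control medium and CM, 1 to 3 for the difference in CM effect (1 when control replicate 1 or 3 of CD26- NFs, or 11 of CD26+ NFs, was left out) and 2 to 8 among lines (2 without CD26- CM replicate 6 or 8 or CD26+ CM replicate 15, 16 or 17). Groups with few reads, such as CD26- CM for Kcnq3 (0 to 2 reads a library) and CD26+ control for Kcnmb1 (2 to 4) and Kcna1 (1), are limited by depth.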
